A study of Mus musculus with 16 samples.

Results

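The HoxD cluster is the group of Hox genes on mouse chromosome 2, and its chromatin was described here in a mesenchymal stem cell (MSC) line with deleted Dicer and one with intact Dicer. The locus was taken as the mm9 window chr2:74480000-74610000, 130.0 kb long, and every peak that overlapped it by at least 1 bp was included. The definition of the window places Evx2 and Hoxd13 near 74.5 Mb and Hoxd1 near 74.6 Mb. Of 289380 peaks in 24 deposited lists, 64 met the window, 44 of them called against whole-cell extract and 20 in difference lists. The KO samples were labelled Dicer -/- and the WT samples Dicer f/f, with floxed but intact alleles, and both were monoclonal immortalized MSC lines of strain C57BL/6 grown in the same medium. Each of 3 histone marks was profiled by ChIP-seq in 2 KO and 2 WT libraries. Nothing in the labels said that replicates came from separate cultures or clones, so the spread between them may be technical, and a difference between genotypes cannot be told apart from one between clones. Read depth was unknown, because the files hold peaks and no counts.

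Hox genes encode homeodomain transcription factors that specify position along the body axis, and their order on the chromosome follows the order in which they are expressed from head to tail. Polycomb repressive complex 2 writes H3K27me3 over Hox genes that are silent in a cell, H3K4me3 marks active and poised promoters, and H3K36me3 is laid down over transcribed gene bodies. In the RefSeq annotation the protein-coding genes, sorted by start, were Evx2, Hoxd13, Hoxd12, Hoxd11, Hoxd10, Hoxd9, Hoxd8, Hoxd3, Hoxd4 and Hoxd1. This sorts gene starts only and does not show overlaps, so it need not give the order of Hoxd3 and Hoxd4 in the cluster. Lnpk and Mtx2 were the nearest protein-coding genes outside. Hoxd13 and Hoxd12 act in digits and the genital region, Hoxd11 in the forearm, Hoxd10 in limbs and hindlimb motor neurons, and Hoxd9 in the upper limb. Hoxd3 and Hoxd4 pattern the neck vertebrae, Hoxd1 acts in pain-sensing neurons of the mouse, and Hoxd8 is a central member of the cluster. This annotation was on GRCm38.p6 and not on mm9, so no peak was assigned to a single gene, and the 9 Hoxd genes are described together by position along the window.

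The cluster also holds a microRNA gene, Mir10b, which lies after the start of Hoxd4 and before that of Hoxd1. Its products are of interest here because Dicer cuts microRNA precursors into their mature forms. The mature RefSeq sequences are shown 5′ to 3′ with the seed, bases 2 to 8, in capitals, and lie on the plus strand of GRCm38.p6 at chr2:74726074-74726096 and chr2:74726114-74726135, positions that are not comparable with the mm9 ones.
mmu-miR-10b-5p: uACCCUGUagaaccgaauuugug
mmu-miR-10b-3p: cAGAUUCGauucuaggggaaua
Among 1679 mature mouse sequences, the seed of miR-10b-5p was shared with miR-10a-5p alone, and that of miR-10b-3p with no other.

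Polycomb and H3K4me3 both favour CpG-rich promoters in vertebrates, so the CpG content of the Hoxd promoters was counted as the dinucleotide CG, which reads the same on both strands, in the 250 bases before each start. All 9 Hoxd genes matched, with 10 starts, since Hoxd11 has 2. Their median was 12.5 CG, against 6 over 32851 mouse promoters, and 8 of the 10 were at or above that median. The share of promoters with a CG was 92.1% over all promoters. The promoters of the genes at both ends and of Hoxd4, the gene listed just before Mir10b, are shown with each CG in capitals, all on the plus strand of GRCm38.p6, at chr2:74667975-74668224, chr2:74721728-74721977 and chr2:74762730-74762979.
Hoxd13: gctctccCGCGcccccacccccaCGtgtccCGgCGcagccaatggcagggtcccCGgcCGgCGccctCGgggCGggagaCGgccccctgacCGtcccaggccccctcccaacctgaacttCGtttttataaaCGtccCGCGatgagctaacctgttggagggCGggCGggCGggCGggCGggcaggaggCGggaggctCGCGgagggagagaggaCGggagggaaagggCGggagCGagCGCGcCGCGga
Hoxd4: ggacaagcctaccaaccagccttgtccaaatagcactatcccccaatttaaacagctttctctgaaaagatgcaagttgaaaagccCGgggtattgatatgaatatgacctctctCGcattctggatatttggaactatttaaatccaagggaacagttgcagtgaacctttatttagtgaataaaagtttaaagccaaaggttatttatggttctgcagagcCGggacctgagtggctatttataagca
Hoxd1: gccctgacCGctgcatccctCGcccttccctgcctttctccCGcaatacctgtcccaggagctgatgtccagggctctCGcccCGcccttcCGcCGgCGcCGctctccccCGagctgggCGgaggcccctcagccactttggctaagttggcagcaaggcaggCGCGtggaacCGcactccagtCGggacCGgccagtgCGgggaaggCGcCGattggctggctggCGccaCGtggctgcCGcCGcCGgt
Hoxd13 had 31 CG, a number reached by 5.19% of all promoters. Hoxd1 had 24, reached by 11.98%, and Hoxd10 had 20, reached by 17.9%. Hoxd4 had 3, reached by 71.0%, and the lowest count was 2, at one of the Hoxd11 starts, while the other Hoxd11 start had 20. Hoxd9 had 13, Hoxd3 12, Hoxd12 10 and Hoxd8 6. The genes at both ends were thus CpG-rich and Hoxd4 was CpG-poor.

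H3K27me3 covered 0 and 40.3 kb of the window in KO replicates 1 and 2, against 23.8 and 66.8 kb in WT replicates 1 and 2. Within each replicate number the WT library had the greater length, but the genotypes overlapped, since KO replicate 2 lay between the WT libraries. The means were 20.2 ± 28.5 kb in KO, against 45.3 ± 30.4 kb in WT (SD, n = 2 each). The difference of -25.1 kb was smaller in size than either SD. The exact two-sided permutation test gave p = 0.667, and 0.889 after Benjamini-Hochberg adjustment over 4 tests. With 2 libraries per genotype the smallest p this test allows is 0.333. Without KO replicate 1 the difference was -4.97 kb and without WT replicate 2 it was -3.67 kb.

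KO replicate 1 had only 703 H3K27me3 peaks in all, against 17491 in KO replicate 2, 2558 in WT replicate 1 and 14932 in WT replicate 2. Of the 2251 H3K27me3 regions of 5 kb or more in the genome, made by merging the 4 lists, KO replicate 1 listed 12.9%, KO replicate 2 86.7%, WT replicate 1 48.8% and WT replicate 2 94.9%. The part of list length in the absence of H3K27me3 from the window in KO replicate 1 was not tested. The window took up 0% and 0.117% of the H3K27me3 length of the KO lists, against 0.510% and 0.176% of the WT lists. When every list was kept to its strongest peaks, as many as the shortest list held and with ties kept, a comparison chosen after seeing the data, the window had 0 and 25.8 kb in KO, against 14.0 and 44.7 kb in WT. Ties at a score of 3100 left WT replicate 2 with 893 peaks, against 703 in each other list. Its 3 kept peaks in the window all had this tied score, so its 44.7 kb rests on keeping ties.

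**Figure D1:**
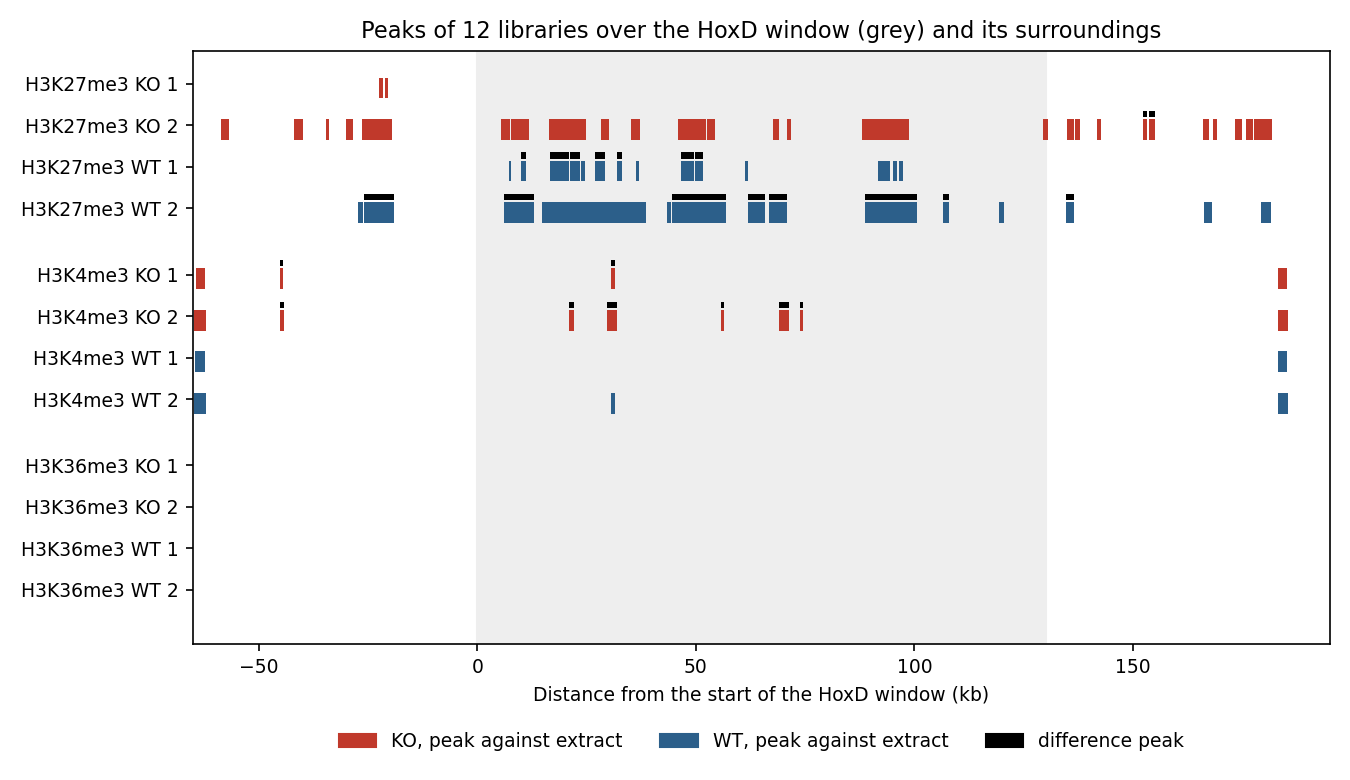
Peaks of the 12 ChIP libraries, plotted by distance in kb from the start of the HoxD window (grey); coloured boxes are peaks against whole-cell extract, KO in red and WT in blue, and black bars are difference peaks. H3K27me3 is absent from the window in KO replicate 1 and present in the other 3 libraries, H3K4me3 is listed in both KO libraries and in WT replicate 2, and H3K36me3 is listed in none.

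H3K27me3 was not spread evenly over the cluster but lay in blocks that partly overlapped between the libraries that listed it there. KO replicate 1 listed none. Of the H3K27me3 length of KO replicate 2 in the window, 93.7% was also covered in WT replicate 2. Of that of WT replicate 1, 97.4% was covered in WT replicate 2 and 85.5% in KO replicate 2. In the other direction, 34.8% of the length of WT replicate 2 was covered in WT replicate 1 and 56.6% in KO replicate 2. The mark took up 51.4% of the whole window in WT replicate 2, 31.0% in KO replicate 2 and 18.3% in WT replicate 1. KO replicate 2 covered 2557 bp that WT replicate 2 did not, and WT replicate 2 covered 28994 bp that KO replicate 2 did not. Over 13 bins of 10 kb, the mark was present in 0 and 11 bins in KO and in 8 and 13 bins in WT. The densest bins were the one from 20 to 30 kb after the start of the window, with 0% and 65.3% covered in KO and 67.4% and 100% in WT, and the one from 90 to 100 kb, with 0% and 87.9% in KO and 46.8% and 100% in WT. KO replicate 2 covered more than WT replicate 2 in 3 of the 13 bins and less in 10. The longest stretch with no H3K27me3 in any library was 16.2 kb, chr2:74551797-74568001, and the next was 11.4 kb, chr2:74587972-74599342.

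The 4 H3K27me3 lists merged into 12 regions that met the window, of which 0 and 7 were listed in KO replicates 1 and 2 and 5 and 10 in WT replicates 1 and 2. The widest, chr2:74494829-74518614, lay toward the Evx2 and Hoxd13 end of the window. The mark took up 0 and 12353 bp of it in KO, against 11842 and 23786 bp in WT, where it formed 1 unbroken peak in WT replicate 2. With 23.8 kb it ranked 48 in width among 24016 H3K27me3 regions of the genome. Its neighbours in rank were chr14:49270597-49294429, with 0 and 2244 bp in KO, against 15258 and 23833 bp in WT, and chr2:152766054-152789738, with 0 and 22823 bp in KO, against 4203 and 23685 bp in WT. All 3 regions had no H3K27me3 peak in KO replicate 1.

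The second widest region, chr2:74568002-74580535, had 0 and 10790 bp under the mark in KO, against 4681 and 11930 bp in WT. The next, chr2:74524482-74533439, had 0 and 7293 bp in KO, against 4923 and 8948 bp in WT. At chr2:74485529-74492903 the values were 0 and 6081 bp in KO, against 1769 and 6890 bp in WT. These 3 regions were listed in every library but KO replicate 1. The remaining regions of the 6 widest had less in KO replicate 2, with 0 and 2356 bp in KO against 0 and 4235 bp in WT at chr2:74546712-74551796, and 0 and 0 bp in KO against 0 and 3820 bp in WT at chr2:74541948-74545767. The other 6 regions were 622 to 3552 bp wide, and 1 of them, at the Hoxd1 end of the window, was listed in KO replicate 2 alone.

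Over the 5 regions of 5 kb or more, the length covered in KO replicate 2 was 0.519 to 0.904 of that in WT replicate 2, with a median of 0.815. The same ratio over the 2137 such regions of the genome that WT replicate 2 listed had a median of 0.660 and quartiles of 0.290 and 0.985. The ratio was below 1 in each of the 5 regions, but the upper quartile of the genome, 0.985, was also below 1. A ratio below 1 is thus not particular to the window.

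**Figure D2:**
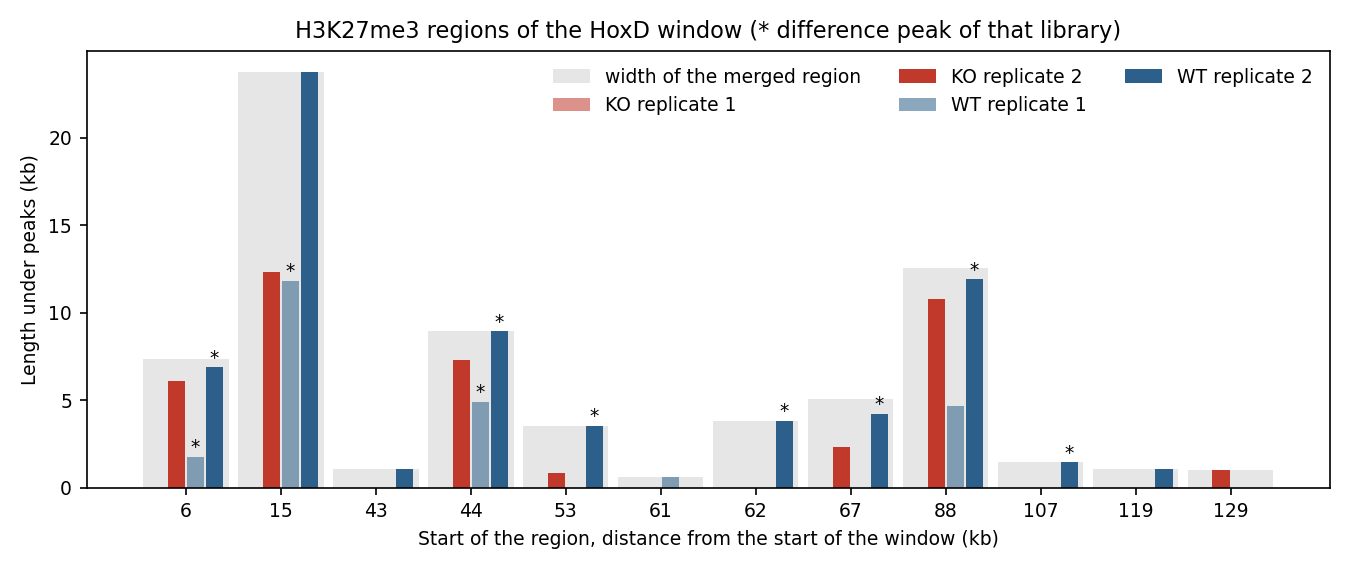
Length under H3K27me3 peaks in kb for the 12 regions of the HoxD window, ordered along the window by their start in kb; grey bars give the width of the merged region, red bars KO and blue bars WT, pale for replicate 1 and full for replicate 2, and stars mark a difference peak of that library. The widest region reaches 23.8 kb in WT replicate 2 and 12.4 kb in KO replicate 2, and every star stands on a WT bar.

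Difference lists, which the authors deposited for each library beside the list against extract, carried H3K27me3 calls in the window for WT libraries only. A peak in the difference list of a KO or WT library is called KO-higher or WT-higher here, on the reading that the control was the other genotype, which the sources used here do not state. Each of the 20 difference peaks of the window matched, base for base, a peak that its library also had against extract. WT-higher calls fell in 3 of the 12 H3K27me3 regions in replicate 1, against 4.03% of all H3K27me3 regions, and in 7 of 12 in replicate 2, against 21.0%. In both replicates 2 regions were WT-higher, chr2:74485529-74492903 and chr2:74524482-74533439, against 3.76% of all regions. Since 5 of the 12 regions were 5 kb wide or more, the calls were also read against regions of that width, a class chosen after seeing the data. Of these 5, 3 were WT-higher in replicate 1, against 32.8% in the genome, 4 in replicate 2, against 66.7%, and 2 in both, against 30.5%. At this width the counts lay nearer their backgrounds. KO-higher calls fell in none of the 12 regions, against 0.404% of all regions in replicate 1, 13.6% in replicate 2 and 0.171% in both, so with 12 regions their absence is not a result about the cluster.

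The strongest WT-higher peak of the window in replicate 2 was chr2:74524482-74533429, with a score by the authors' peak caller of 1549, above 92.5% of the peaks in its list. In replicate 1 the strongest was chr2:74506859-74509189, with a score of 254, above 72.1% of its list. It lay in the widest region, which held 4 of the 7 replicate 1 calls but none in replicate 2. With scores of at least 160, no region of the window was WT-higher in both replicates.

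H3K4me3 was sparse over the cluster and was listed mainly in KO. It covered 1013 and 7011 bp of the window in KO, against 0 and 841 bp in WT, so both KO libraries had more than either WT library. This separation rested on the single peak of KO replicate 1, whose score was 159.89: with scores of at least 160, and likewise with lists of equal length, KO replicate 1 had 0 bp like both WT libraries, and the exact permutation test gave p = 1 in both settings. The means were 4.01 ± 4.24 kb in KO, against 0.421 ± 0.595 kb in WT (SD, n = 2 each). The difference of 3.59 kb gave p = 0.333 in the exact two-sided permutation test, the smallest this design allows, and 0.667 after adjustment. It was 0.593 kb without KO replicate 2 and 6.59 kb without KO replicate 1, so KO replicate 2 set most of its size.

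The H3K4me3 peaks merged into 5 regions, from 608 to 2314 bp wide, against a median of 1856 bp over all 25204 H3K4me3 regions. The one listed in both KO libraries was chr2:74509713-74512026, with 1013 and 2314 bp in KO, against 0 and 841 bp in WT. It lay within the widest H3K27me3 region, toward the Hoxd13 end. The other 4 were listed in KO replicate 2 alone, at chr2:74500904-74502019, chr2:74535781-74536388, chr2:74549070-74551255 and chr2:74553722-74554508. The peak at chr2:74549070-74551255 had the highest H3K4me3 score of the window, 2007, above 52.2% of the peaks in its list. The KO replicate 1 peak, with a score of 159.89, was above 13.0% of its list, and the WT replicate 2 peak, with 109, above 4.58%, so both were among the weaker peaks of their libraries.

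All 5 H3K4me3 regions were KO-higher in replicate 2, against 23.8% of all H3K4me3 regions, and 1 of 5 in replicate 1, against 20.7%. In 4 of these regions the KO replicate 2 peak is the only one, so the call could fall on no other library. The region called in both replicates was chr2:74509713-74512026, and 1 of 5 compares with 10.8% of all regions. None was WT-higher in both replicates, against 1.12% of all regions. In the replicate 2 difference list the peak at chr2:74549070-74551255 scored 1463, above 98.1% of the list. When the H3K4me3 lists were kept to equal length, this peak alone remained in the window, with 2186 bp in KO replicate 2. The KO replicate 2 H3K4me3 list was also the longest of its mark, with 23818 peaks, against 16712 in KO replicate 1, 12726 in WT replicate 1 and 18296 in WT replicate 2, and the part of list length in these peaks was not tested.

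H3K4me3 and H3K27me3 were then compared by position, in libraries of the same genotype and number. The peaks shared 0 and 1908 bp of the window in KO, against 0 and 841 bp in WT (exact two-sided permutation test, p = 1, n = 2 each). In KO replicate 2, 27.2% of the H3K4me3 length lay under H3K27me3, which covered 31.0% of the window in that library. In WT replicate 2, where H3K27me3 covered 51.4% of the window, the single H3K4me3 peak lay wholly under it. The KO replicate 2 share was thus near the share of the window that H3K27me3 took up, and the WT share is that of 1 peak. The KO replicate 2 peak at chr2:74500904-74502019 was wholly under H3K27me3 in that library, while those at chr2:74535781-74536388 and chr2:74553722-74554508 had none.

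The positions of single peaks are given as a description, since most of the window lay outside H3K27me3 peaks in KO replicate 2. At chr2:74549070-74551255 the peak started 16 bp after the end of one H3K27me3 peak and ran 375 bp into the next. H3K27me3 covered 0% and 17.2% of this stretch in KO, against 0% and 85.9% in WT. At chr2:74509713-74512026 H3K27me3 covered 0% and 18.02% in KO, against 3.24% and 100% in WT. The small region chr2:74535781-74536388 had 0% in both KO libraries, against 0% and 100% in WT. In WT replicate 1, which listed no H3K4me3 peak in the window, H3K27me3 was also absent or nearly so there. Around chr2:74549070-74551255 and chr2:74535781-74536388 that library had 0 bp in the whole merged H3K27me3 region, not a break at the H3K4me3 site alone. The 16.2-kb stretch without H3K27me3 in any library held the KO replicate 2 peak at chr2:74553722-74554508.

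**Figure D3:**
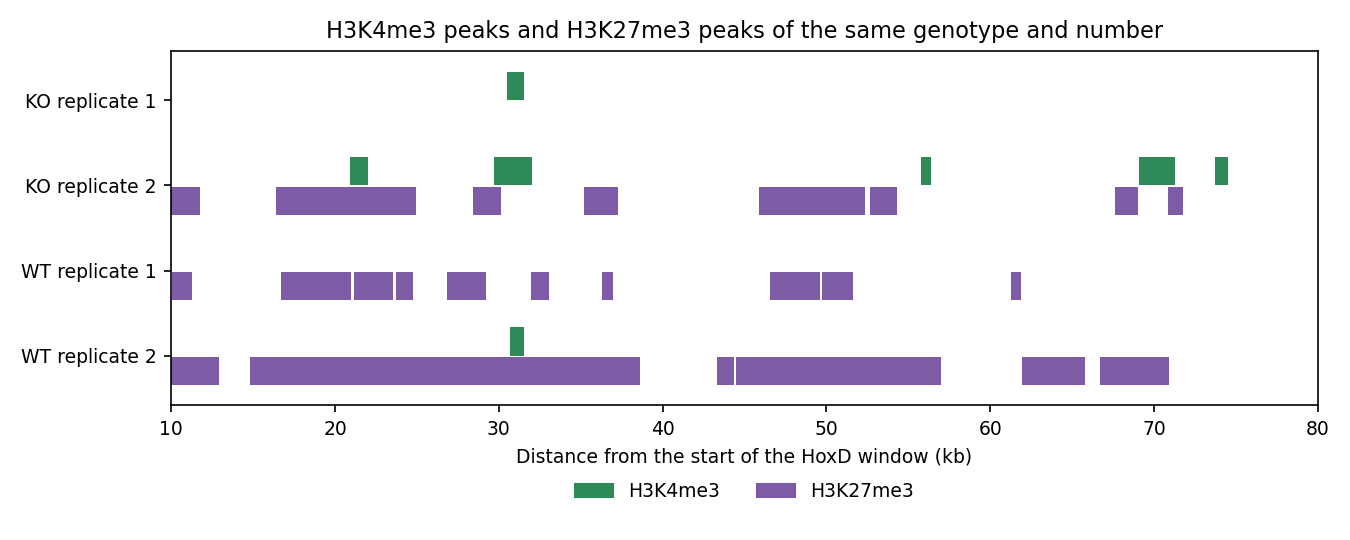
H3K4me3 peaks (green, above) and H3K27me3 peaks (purple, below) of each genotype and number, from 10 to 80 kb after the start of the HoxD window. In KO replicate 2 the 2 widest H3K4me3 peaks, of 2314 and 2186 bp, lie mostly between H3K27me3 peaks, which cover 31.0% of the whole window there; in WT replicate 2, with 51.4% covered, the H3K4me3 peak of 841 bp lies inside an H3K27me3 peak.

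H3K36me3 was listed nowhere in the window in any of the 4 libraries, nor in their difference lists. The nearest H3K36me3 peaks were 71.8 and 69.2 kb before the window in KO, against 70.9 and 69.0 kb before it in WT. After it they were 91.0 and 87.5 kb away in KO, against 87.4 and 83.6 kb away in WT. In flanks as long as the window, however, the mark was shorter in both KO libraries than in either WT library. Before the window it covered 8.66 and 16.2 kb in KO, against 23.5 and 50.2 kb in WT, and after it 2.43 and 6.73 kb in KO, against 7.03 and 15.2 kb in WT. None of the H3K36me3 regions in the flanks had a difference peak in any library. Of all H3K36me3 regions, 4.23% and 2.31% were KO-higher in replicates 1 and 2, and 5.76% and 8.42% were WT-higher. With such shares, the absence of calls among the few flank regions is not a result about the flanks. These flank lengths were not tested. The total length of the H3K36me3 list was 87.0 Mb in KO replicate 1 and 110.2 Mb in KO replicate 2, whereas it was 108.2 Mb in WT replicate 1 and 176.6 Mb in WT replicate 2, and the part of list length in the flanks was not tested.

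To set the cluster against its surroundings, the same lengths were measured in flanks as long as the window on either side. H3K27me3 covered 1.54 and 13.0 kb of the flank before the window in KO, against 0 and 7.91 kb in WT. In the flank after it the values were 0 and 16.7 kb in KO, against 0 and 5.86 kb in WT. In replicate 2 KO therefore had a greater length under H3K27me3 peaks than WT in both flanks and a smaller one in the window. Flank regions listed in KO replicate 2 alone were 766 to 1979 bp wide. Over the genome in replicate 2, WT-higher calls fell in 66.7% of regions of 5 kb or more, against 21.0% of all regions. KO-higher calls fell in 5.02%, against 13.6%. The contrast of wide and narrow regions is thus not particular to this locus, and the parts of width and list length were not tested. Before the window the only call was WT-higher in replicate 2, at chr2:74452827-74460882, with 6949 bp in KO and 7909 bp in WT. This call did not follow the greater KO length over that flank. After the window, in replicate 2, chr2:74614756-74616443 was WT-higher, while chr2:74632275-74633299 and chr2:74633769-74634978 were KO-higher. Against 21.0% WT-higher and 13.6% KO-higher over all regions, these few calls are not a result about the flanks. KO replicate 1 listed peaks 20.4 kb before the window but none in it. Of the H3K27me3 length in window and flanks together, the window held 0% and 57.6% in KO, against 100% and 82.9% in WT, and the genotypes did not overlap. The means were 28.8 ± 40.7% in KO and 91.5 ± 12.1% in WT (SD, n = 2 each), with p = 0.333 in the exact two-sided permutation test and 0.667 after adjustment. This share was chosen after seeing the data, and in KO replicate 1 it rests on 2 peaks.

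**Figure D4:**
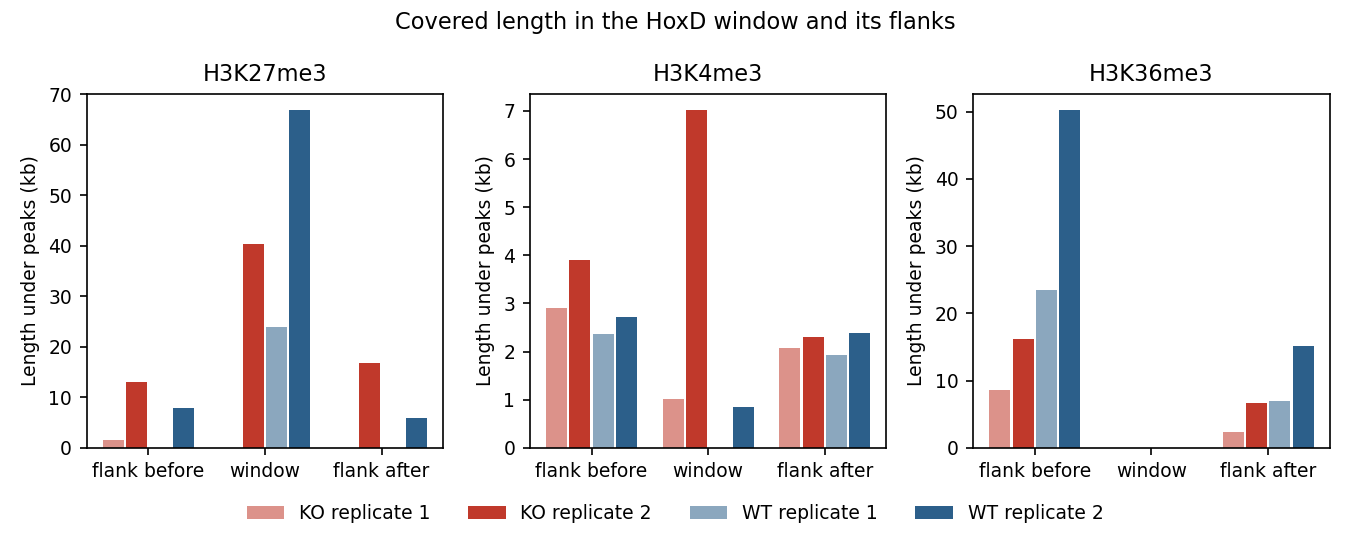
Length under peaks in kb in the HoxD window and in flanks of equal length before and after it, for each mark, with KO in red and WT in blue, pale for replicate 1 and full for replicate 2; each panel has its own axis. In replicate 2 H3K27me3 is longer in KO than in WT in both flanks, at 13.0 and 16.7 kb against 7.91 and 5.86 kb, and shorter in the window, at 40.3 against 66.8 kb.

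H3K4me3 peaks in the flanks were compared in the same way. At chr2:74415123-74417956 the mark had 2107 and 2834 bp in KO, against 2356 and 2723 bp in WT, and at chr2:74663092-74665505 it had 2072 and 2301 bp in KO, against 1922 and 2379 bp in WT. These regions had no difference peak in any library. Of all H3K4me3 regions, 20.7% and 23.8% were KO-higher in replicates 1 and 2, and 7.19% and 5.07% were WT-higher. The absence of calls here is thus not a measure of how well the libraries matched. A smaller region 44125 bp before the window, chr2:74434811-74435874, had 804 and 1064 bp in KO, against 0 bp in either WT library. It was KO-higher in both replicates, as were 10.8% of all H3K4me3 regions. H3K4me3 in KO without a WT counterpart was therefore also listed outside the window. With that share over the genome, a single such region is not a result about the surroundings.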

How the data were processed

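Histone ChIP-seq peak lists of 12 libraries were used, and the 4 whole-cell extract samples had no files of their own here. The tools named are Bowtie 0.12.7 and MACS, with mm9 as build, per the submitters' processing notes. The authors deposited 24 peak lists, 2 per library, in which each peak has a score of at least 80. The MACS version, the formula of the score and the control of the difference lists are not given in the sources used here.

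Groups follow the titles. Peaks on chromosomes 1 to 19 and X were used, clipped at the edges of the window, and positions are printed 1-based. Regions of a mark were the 4 lists against extract merged where they overlapped or touched. A region was called where it held a difference peak, with an overlap of at least 1 bp. Covered lengths were compared with an exact two-sided permutation test, with Benjamini-Hochberg adjustment over 4 tests. H3K36me3, at 0 in every library, was not tested. Regions named are the 6 widest of each mark, those called in both replicates and the rank neighbours of the widest H3K27me3 region, and smaller regions named beyond these were chosen after their values were seen. The window, the lists and the tests were chosen with earlier results of these data known. Interval counting was tested on simulated peaks. Sequences and gene order are from RefSeq on GRCm38.p6, and no position was converted between builds. Python 3.11.15 with numpy 2.4.6, pandas 2.3.3, scipy 1.17.1 and matplotlib 3.10.9 was used.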

Additional observations from a re-analysis of the deposited data

How the results depend on the processing

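The KO minus WT differences of H3K27me3 and H3K4me3 length and of the H3K27me3 share in the window kept their direction under each setting run: scores of at least 160 (not run for the share, where KO replicate 1 had no peak left), whole peaks and a window extended by 65 kb on each side (lengths only), shorter flanks (share only), lists of equal length and each library left out. None could pass a threshold of 0.05. For H3K4me3 the genotypes no longer separated with scores of at least 160 (3.20 kb, exact permutation p = 1) or with lists of equal length (1.09 kb, p = 1). Leaving out 1 library gave -46.6 to -3.67 kb for H3K27me3, 0.593 to 6.59 kb for H3K4me3, 0 kb for H3K36me3 and -91.5 to -33.9 percentage points for the share. The length under both marks, 534 bp greater in KO, ranged from -421 bp without KO replicate 2 to 1488 bp without KO replicate 1 and was 0 bp with lists of equal length, which keep fewer peaks. The 2 WT-higher H3K27me3 regions and the 1 KO-higher H3K4me3 region numbered 0 and 0 with scores of at least 160, and were 2 and 1 when an overlap of 0.5 of the difference peak was asked for or peaks up to 1 kb apart were merged. In single replicates they numbered 3 and 7, and 1 and 5. Taking the replicate numbers as pairs (replicate block) gave the same differences, -25.1 kb, 3.59 kb, 0 kb, 534 bp and -62.7 percentage points, with exact sign-flip p = 0.5, 0.5, none, 1 and 0.5, where 0.5 is the smallest possible. Deviations of same-numbered libraries correlated at 0.506 for H3K27me3, 0.248 for H3K4me3 and 0.216 for H3K36me3 over all regions. With 2 pairs and no label on pairing, the numbers were not taken as pairs. Unknown depth limits each absence of a peak to the authors' threshold.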
